A study of Mus musculus with 4 samples.

Results

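The array of CD4 T cells labelled Gfi1 knockout was set against the array of CD4 T cells labelled wildtype, 2 of the 4 arrays of the series, chosen by their labels alone. On the array labelled knockout, genes of cell division, of effector and regulatory T cells and of their chemokine receptors were lower, while a smaller group of genes of resting naive T cells was higher. No measured member of the lists of mitochondrial respiration, proteasome and chaperone genes was counted as 2-fold apart. The group labelled knockout is CD4+ CD44lo T cells of Gfi1 knockout mice and the group labelled wildtype is CD4+ CD44lo T cells of wildtype mice, both untreated, of C57Bl/6 background and sorted from spleen by flow cytometry. Each array carried the pooled RNA of 2 mice, so each side of the comparison has 1 value per gene, no spread between animals and no test. The type of Gfi1 allele and the age and sex of the mice are not given in the labels. Their titles also differ in a last letter, N for the array labelled knockout and M for the array labelled wildtype, whose meaning the labels do not give. The aim stated for the study was to compare naive T cells of both genotypes, and the other 2 arrays hold CD8 T cells of the same groups.

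Gfi1 encodes a zinc finger protein that represses transcription in blood cells, through the SNAG domain at its end and the corepressors that this domain recruits. In T cells it is known for roles in early thymocyte survival, in the choice between helper programs and in the response to cytokines. Naive CD4 T cells circulate through lymph nodes with the homing receptor CCR7 and the interleukin 7 receptor, do not divide, and carry little CD44. After contact with antigen they divide, raise CD44 and switch on lineage factors, cytokines and receptors for inflamed tissue.

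All values below are linear signals, given for the array labelled wildtype first and the array labelled knockout second. A floor of 93.9 (the 40th percentile of the values of non-control probe sets over the 4 arrays) replaced every dimmer signal, so a fold involving a floored array is a bound and is written as at least that fold. A gene whose bound is under 2-fold is counted with those within 2-fold. Gfi1 itself read 2272 against 2891 (log2 difference 0.35). Neither the labels nor the array annotation say whether its probe set lies inside the part that the allele removes, so this signal does not check the label. Cd44, the surface protein used for the sort, read 8136 against 196 (41.5-fold lower), which goes against the CD44 low label of the array labelled wildtype. The part of this difference in the results below was not tested, and the names "labelled knockout" and "labelled wildtype" are kept for that reason. Precision is limited by the number of arrays. The 18S ribosomal RNA control read 7147 against 3562 and the lys control transcript 27838 against 14830, so both were also lower on the array labelled knockout. The part of these differences in the results was not tested.

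Of 5 CD4 T cell markers, 4 were within 2-fold and Izumo1r was at least 2-fold lower, beside 7.73% of all measured genes. Of 4 measured CD8 T cell markers, 1, Cd8b1, was at least 2-fold higher and none was lower, beside 2.06% of all measured genes. Cd4 read 5901 against 5469.8 (log2 difference -0.11), and all 8 measured pan T cell markers were within 2-fold, with a summed signal of 101002 against 105171. Cd8a was below the floor on both arrays, while Cd8b1, the other chain of the CD8 receptor, read 312 against 970.5 (3.11-fold higher); the 2 CD8 arrays read 26222 and 25715 for it. Of 12 B cell markers, 2 of the 4 measured were at least 2-fold lower, beside 7.73% of all measured genes. They were Cd22, an inhibitor of the B cell receptor, at 1124 against 154 (7.30-fold lower), and Cd79b, a signalling chain of that receptor, at 305 against a value below the floor (at least 3.25-fold lower). The 8 that were not measured were below the floor on both arrays, among them Cd79a, Ms4a1 and Pax5, and most of the summed signal of 16296 against 17835 came from Ighm, at 13985 against 16664 (log2 difference 0.25). Dendritic cell markers summed to 6052 against 4016 with Flt3, Xcr1 and Batf3 below the floor. Of the 7 measured, 2 were at least 2-fold lower, Cd83 and Irf8 (log2 differences -3.34 and -1.62), and none was higher. The other measured members were within 2-fold, and the median of the 7 was 0.07. Monocyte and macrophage markers summed to 1778 against 1211 with 6 of 16 below the floor, C1qa and Cd14 among them. Of the 10 measured, 2 were at least 2-fold lower and 1 was higher. Granulocyte markers summed to 291 against 390.3 with 8 of 9 below the floor, natural killer cell markers to 806 against 395 with Ncr1, Klra7 and Klra8 below it, and erythroid and platelet markers to 716 against 399 with 7 of 9 below it. At least 2-fold lower were 1 of 3 measured natural killer cell markers, 1 of 2 measured erythroid and platelet markers and 2 of 4 measured plasma cell markers. None of these was at least 2-fold higher. The part of such cells in the results was not tested. In such bulk RNA, fewer cells of a type and less RNA per cell cannot be told apart.

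Of 8150 genes above the floor on at least 1 of the 2 arrays, 630 were at least 2-fold lower on the array labelled knockout (7.73%) and 168 at least 2-fold higher (2.06%), together 9.79%, with a median log2 difference of -0.02 over all of them. At 8-fold, the counts were 76 lower and 5 higher. Of the 630, 234 were below the floor on the array labelled knockout and have only a bound. The balance depends on the scaling: the share of higher genes among those apart was 21.1% as deposited, 33.2% after quantile normalization and 47.1% after centring each array on its median, which moved the median of all genes from -0.02 to 0.28. Differences smaller than that shift carry no direction below. Of the genes named below as 2-fold apart, Bcl2l1, Bcl6, Gata3, Gpr155, Hk2, Irf5, Itgae, Notch2, Rhoc, Sla and Smad3 came under 2-fold after that centring, and Arhgef18, Bcl2l1, Hk2, Irf5 and Smad3 after quantile normalization. With the mean of all probe sets of a gene, Anp32a, Bcl2l1, Gcnt2, Ifngr2, Il10ra, Irf5, Klf13, Klf9, Myo5a, Notch2, Pdlim1, Rhoc, Tmem144 and Tubb2a did so, and without probe sets that match several transcripts, Anp32a, Gcnt2, Id2, Klf13, Myo5a, Rhoc, Tmem144 and Tubb2a. Bcl2 and Plbd1 came under 2-fold with a pseudocount of 16 in place of the floor. With the floor raised to the 60th percentile, many dim genes had no value or came under 2-fold. The shares of 7.73%, 2.06% and 9.79% are the background for each count of list members below. The lists were chosen with earlier results of these data known, so setting a count beside its background is a description and not a test. The CD8 pair of arrays, which shares no array with the CD4 pair, had 347 genes lower (4.29%) and 98 higher (1.21%) of 8093, together 5.5%. Its titles end in the same letters, N for the array labelled knockout and M for the array labelled wildtype. Cd44 was lower in that pair too, with a log2 difference of -4.51 after flooring, although both CD8 arrays are labelled CD44 low. The part of this difference in the CD8 values below was not tested.

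**Figure D1:**
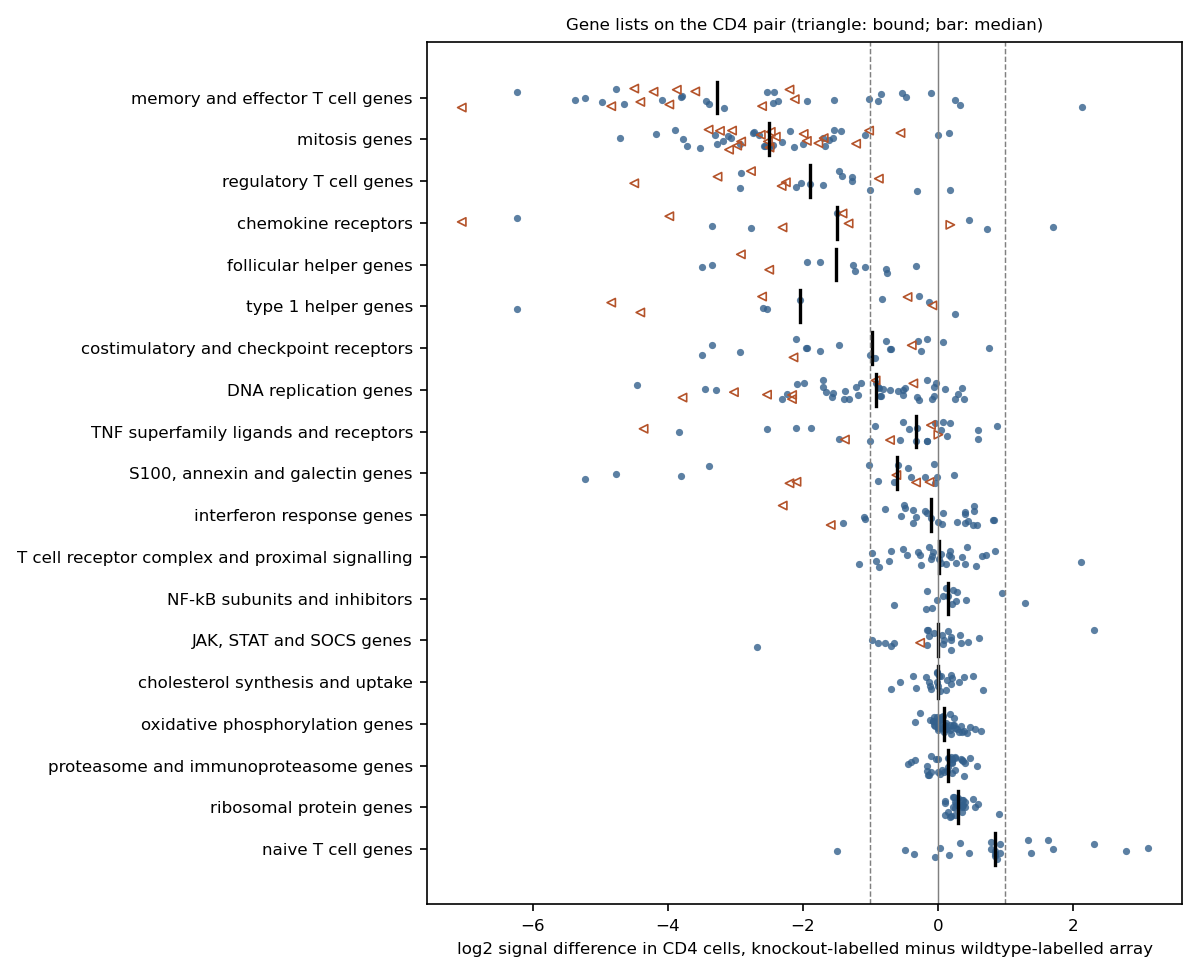
Log2 signal difference in CD4 cells (knockout label minus wildtype label) of each measured gene in the gene lists, 1 list per line; points are genes above the floor on both arrays, open triangles are bounds with 1 array at the floor, black bars are medians and dashed lines mark 2-fold. Most mitosis, memory and regulatory genes lie left of 0 (47 of 50, 30 of 38 and 16 of 19 at least 2-fold lower), while no gene of the ribosomal, respiratory, proteasome and cholesterol lists was 2-fold apart.

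Genes of naive T cells had a median log2 difference of 0.84, the highest of the lists with at least 3 measured members, with 7 of 23 members at least 2-fold higher (background 2.06%) and 1 lower. Ccr7, a homing receptor for lymph nodes, read 4805 against 15625 (3.25-fold higher). Il7r, the survival receptor of naive cells, read 13038 against 23352 (log2 difference 0.84), and S1pr1, the receptor for exit from lymphoid tissue, read 3071 against 5523 (log2 difference 0.85), both under 2-fold. Igfbp4, a secreted binder of insulin-like growth factors, read 3196 against 22009.6 (6.89-fold higher). Cnn3, an actin-binding calponin, read 469 against 4042 (8.62-fold higher). Satb1, an organizer of chromatin in T cells, read 5506 against 14385 (2.61-fold higher). Igfbp4 and Cnn3 were high on the CD8 array labelled knockout as well, with log2 differences of 2.96 and 2.08. The member on the other side was Ccr9, the receptor for gut homing, at 2334 against 824 (2.83-fold lower), and it was far apart the other way in the CD8 pair, at 839 against 8689.7 (10.4-fold higher).

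Memory and effector genes lay on the other side: 30 of 38 members were at least 2-fold lower (background 7.73%), 1 was higher, and the median log2 difference was -3.28. In the CD8 pair the same list had a median of -2.11. The member that was higher was Prf1, the pore-forming protein of killer granules, at 314 against 1375 (4.38-fold higher); in the CD8 pair it differed by -0.84. Nkg7, a granule membrane protein, read 4486 against 179 (25.1-fold lower). Gzmk and Gzmb, serine proteases of the granules, read 1135 against a value below the floor (at least 12.1-fold lower) and 409 against a value below the floor (at least 4.35-fold lower). Cst7, a cathepsin inhibitor of killer cells, read 3541 against 1034 (3.43-fold lower), while Srgn, the proteoglycan that packs granules, read 22817 against 19286 (log2 difference -0.24). Of 14 measured granule genes, 5 were lower and Prf1 alone was higher.

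The lists of helper lineages each held more lower than higher genes. Of 13 measured type 1 helper genes, 7 were lower with a median of -2.04. Tbx21, the factor T-bet that directs this lineage, read 2689 against a value below the floor (at least 28.6-fold lower), and Ifng, its cytokine, read 1995 against a value below the floor (at least 21.2-fold lower). Both chains of the interleukin 18 receptor are in the list and they diverged: Il18rap read 571 against a value below the floor (at least 6.09-fold lower), while Il18r1 read 2980.5 against 3535 (log2 difference 0.25). Stat4, which carries the interleukin 12 signal, was level at 4772 against 4340.2 (log2 difference -0.14), while the receptor chain Il12rb1 read 1078 against 179 (6.01-fold lower).

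Type 2 helper genes had 5 lower and 1 higher of 7 measured. The 5 members not measured, Il5 and Il13 among them, were below the floor on both arrays. Gata3, the factor of that lineage, read 2064 against 869 (2.38-fold lower), and Il4, its cytokine, read 710.4 against a value below the floor (at least 7.57-fold lower). The receptor for that cytokine ran the other way, with Il4ra at 958 against 3068 (3.20-fold higher), and in the CD8 pair Il4ra differed by -0.49. Of 7 type 17 helper genes measured, 4 were lower: Rora, a nuclear receptor of this lineage, read 1192 against 119 (9.99-fold lower), Ccr6, its homing receptor, read 1246 against 183 (6.80-fold lower), Ahr, the aryl hydrocarbon receptor, read 594 against a value below the floor (at least 6.32-fold lower), and Il21 read 531 against a value below the floor (at least 5.65-fold lower). A second probe set of Ahr differed by 0.25, so its probe sets disagree. The 2 type 17 members not measured, Il17a among them, were below the floor on both arrays. The medians were -1.32 for the type 2 list and -2.50 for the type 17 list. Over genes above the floor on both CD4 arrays, these medians were -0.40 and -0.34. The follicular helper list had 9 of 12 measured members lower with a median of -1.50. Cxcr5, which leads cells into B cell follicles, read 2754 against 269.8 (10.2-fold lower), Pdcd1, the receptor PD-1, read 1966 against 174 (11.3-fold lower), and Icos, a costimulatory receptor, read 4964 against 1296 (3.83-fold lower). Bcl6, the repressor that directs this lineage, was a smaller part of it, at 1180.1 against 501 (2.35-fold lower).

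Of 19 regulatory T cell genes, 16 were lower and none was higher, with a median of -1.90, beside -0.09 for the 14 members measured in the CD8 pair. Foxp3, the factor that defines these cells, read 824 against 221 (3.72-fold lower) and was below the floor on both CD8 arrays. Il2ra, the high-affinity chain of the interleukin 2 receptor, read 640.4 against a value below the floor (at least 6.82-fold lower). Ctla4, an inhibitory receptor, read 4490.5 against 585 (7.67-fold lower), and Nrp1, a semaphorin receptor on regulatory cells of thymic origin, read 3816 against 505 (7.55-fold lower). Both enzymes that make extracellular adenosine were in the group, Entpd1 (CD39) at 448 against a value below the floor (at least 4.77-fold lower) and Nt5e (CD73) at 628 against 154 (4.07-fold lower). Izumo1r, the folate receptor FR4, read 7024 against 2629 (2.67-fold lower). The lists overlap: Klrg1, at 2123 against a value below the floor (at least 22.6-fold lower), counts here and among memory genes. Ikzf2, the factor Helios, was below the floor on the array labelled knockout and at 172 on the array labelled wildtype, which leaves a bound under 2-fold, and Gpr83, a G protein coupled receptor of these cells, read 487 against 549.7 (log2 difference 0.17).

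Most families of transcription factors held members that were apart and members that were not. Over the union of 12 factor lists, which leaves out the AP-1 and immediate early genes, 132 genes were measured, of which 29 were lower and 5 higher, with a median of -0.15. The 5 of these on the higher side were Bach2, Lef1, Bcl3, Klf13 and Ets2. Bach2, a repressor that keeps T cells in a resting state, read 1134 against 3525 (3.11-fold higher), and Lef1, a partner of beta-catenin in naive cells, read 1746 against 4419 (2.53-fold higher). Klf13, a Kruppel-like factor with a role in chemokine expression by T cells, read 2238 against 5042 (2.25-fold higher). Ets2 read 917 against 1963 (2.14-fold higher), beside Ets1, another member of that family, at 21328 against 23254 (log2 difference 0.12).

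**Figure D2:**
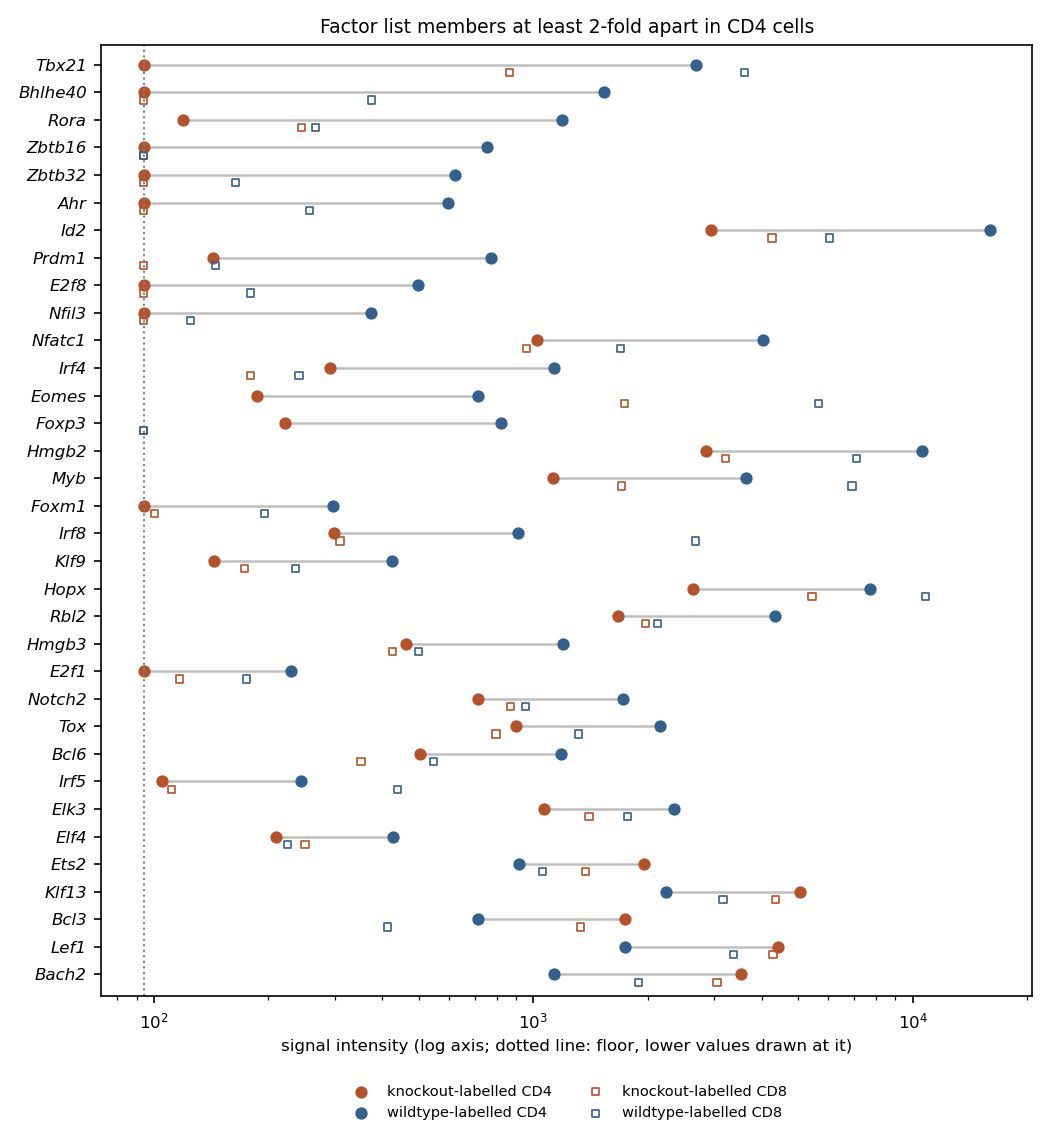
Signal (logarithmic axis) of the 34 genes of the 12 factor lists at least 2-fold apart on the CD4 arrays, from the lowest log2 difference at the top to the highest at the bottom; filled circles are the CD4 arrays, open squares the CD8 arrays, orange labelled knockout and blue labelled wildtype, and the dotted line is the floor of 93.9. The upper 29 genes are lower on the CD4 array labelled knockout and the lowest 5 higher, and Foxp3 and Zbtb16 are below the floor on both CD8 arrays.

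Factors of killer and effector fate held several of the larger differences. Bhlhe40, a helix-loop-helix repressor of activated T cells, read 1537 against a value below the floor (at least 16.4-fold lower). Id2, which blocks E proteins, read 15967 against 2942 (5.43-fold lower), whereas the related Id3 read 2295 against 1638 (log2 difference -0.49). Prdm1, the repressor Blimp-1, read 773 against 143 (5.41-fold lower), and Eomes, the T-box partner of T-bet, read 716 against 186 (3.84-fold lower). Hopx, an atypical homeobox protein of memory cells, read 7721 against 2641 (2.92-fold lower). Runx3 was dim on both arrays, at 179 against 101 (log2 difference -0.83). The E proteins that Id2 binds were level, Tcf3 at 1215 against 1214 and Tcf12 at 3714 against 3422 (log2 difference -0.12). Among the Notch genes, Notch2 read 1727 against 713 (2.42-fold lower) with a second probe set at 0.04, and Notch1 read 2436 against 2108 (log2 difference -0.21).

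Both Zbtb16 and Zbtb32, zinc finger repressors of the BTB group, were at the low end of their list. Zbtb16, the factor PLZF of innate-like T cells, read 755 against a value below the floor (at least 8.04-fold lower) and was below the floor on both CD8 arrays. Zbtb32 read 619.9 against a value below the floor (at least 6.60-fold lower). In contrast Ikzf1, the factor Ikaros, read 1344 against 1823 (log2 difference 0.44), Bcl11b, the T cell identity factor, 6632 against 8966 (log2 difference 0.44), and Zbtb7b, the factor ThPOK of CD4 cells, 586 against 701 (log2 difference 0.26). The gamma delta variable gene Trgv1 read 1532 against a value below the floor (at least 16.3-fold lower). No probe set for the constant genes of that receptor was named here, and the part of innate-like or gamma delta cells in these values was not tested.

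Among factors that answer receptor signals, 3 of 8 interferon regulatory factors were lower. Irf4, induced by the T cell receptor, read 1134 against 291 (3.90-fold lower), Irf8 read 912 against 298 (3.07-fold lower) and Irf5 read 244 against 105 (2.33-fold lower). Irf1, Irf2, Irf3, Irf7 and Irf9 were within 2-fold by the probe sets used, with another probe set of Irf3 at -1.05. Irf8 and Irf5 were also lower in the CD8 pair, with log2 differences of -3.11 and -1.98. In that pair 6 of 9 measured dendritic cell markers, Irf8 among them, were at least 2-fold lower. The part of such cells in these CD8 values was not tested. Nfatc1, a target of calcineurin, read 4035 against 1025 (3.94-fold lower), while Nfatc3 read 3279 against 2224 (log2 difference -0.56) and the calcineurin subunit Ppp3r1 2298 against 2552 (log2 difference 0.15). Egr2, an early growth response factor, read 1774 against 535 (3.31-fold lower), but Egr1 read 4689 against 4142 (log2 difference -0.18), Fos 16059 against 20059 (log2 difference 0.32) and Jun 5461 against 8768 (log2 difference 0.68). Of 19 AP-1 and immediate early genes, 2 were apart, near the background share of 9.79%, and Maff, a small Maf protein, was the one on the higher side, at 126 against 316 (2.50-fold higher). Of 15 genes of NF-kB subunits and inhibitors, 1 was apart, also near that share. It was Bcl3, an atypical inhibitor that binds NF-kB in the nucleus, at 715 against 1749 (2.45-fold higher), with a log2 difference of 1.69 in the CD8 pair. Klf2, the factor behind S1pr1 expression in resting T cells, read 8784 against 15207 (log2 difference 0.79), and Klf9 read 423 against 144 (2.93-fold lower), with one of its other 3 probe sets at 0.26.

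In cytokine pathways no JAK or STAT gene was 2-fold apart, while receptors and feedback inhibitors were. The JAK, STAT and SOCS list had a median of 0.01, with 2 of 24 genes apart, near the background share of 9.79%. Those 2 were both inhibitors of that signal, in opposite directions. Socs3 read 2971 against 14757 (4.97-fold higher), and Socs2 read 701 against 109.8 (6.39-fold lower). The CD8 arrays gave 1.71 for Socs3 and -0.49 or lower for Socs2. Stat3, which many cytokines that induce Socs3 activate, read 5274 against 8069 (log2 difference 0.61), with 1 of its other 2 probe sets at -1.37, so its probe sets disagree. Cish, an inhibitor induced by interleukin 2, read 1835 against 996 (log2 difference -0.88), and Jak1 read 12386 against 15738 (log2 difference 0.35).

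Receptors of the common gamma chain family diverged by chain. Il2rb, the chain shared by interleukins 2 and 15, read 6045 against 673 (8.98-fold lower), and Il15ra read 359.6 against 117 (3.08-fold lower). Together with Il2ra, these 3 chains that bind interleukin 2 or 15 were lower, while Il4ra and Il7r were the 2 highest differences of the family and Il21r read 1513 against 2209.5 (log2 difference 0.55). Among other cytokine receptors, Ifngr2, the signalling chain of the interferon gamma receptor, read 245 against 958 (3.91-fold higher), with a second probe set at -0.02, and the ligand-binding chain Ifngr1 read 2419 against 2503 (log2 difference 0.05). Il10ra read 565 against 134 (4.23-fold lower), with a second probe set at 0.90, and Il10rb read 2913 against 2608 (log2 difference -0.16). Tgfbr3, a coreceptor for TGF-beta, read 153 against 368 (2.40-fold higher), and Il6ra, the interleukin 6 receptor, read 1646 against 3124 (log2 difference 0.92). Secreted cytokines were lower in 6 of 14 measured genes and higher in none. Il2 read 605 against a value below the floor (at least 6.45-fold lower), Tnf read 998 against 242 (4.12-fold lower) and Il10 read 312 against 95.7 (3.26-fold lower), while Ltb, for a membrane-bound lymphotoxin chain, and Il16 were level, at 23137 against 25729.5 (log2 difference 0.15) and 8689 against 9734 (log2 difference 0.16).

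**Figure D3:**
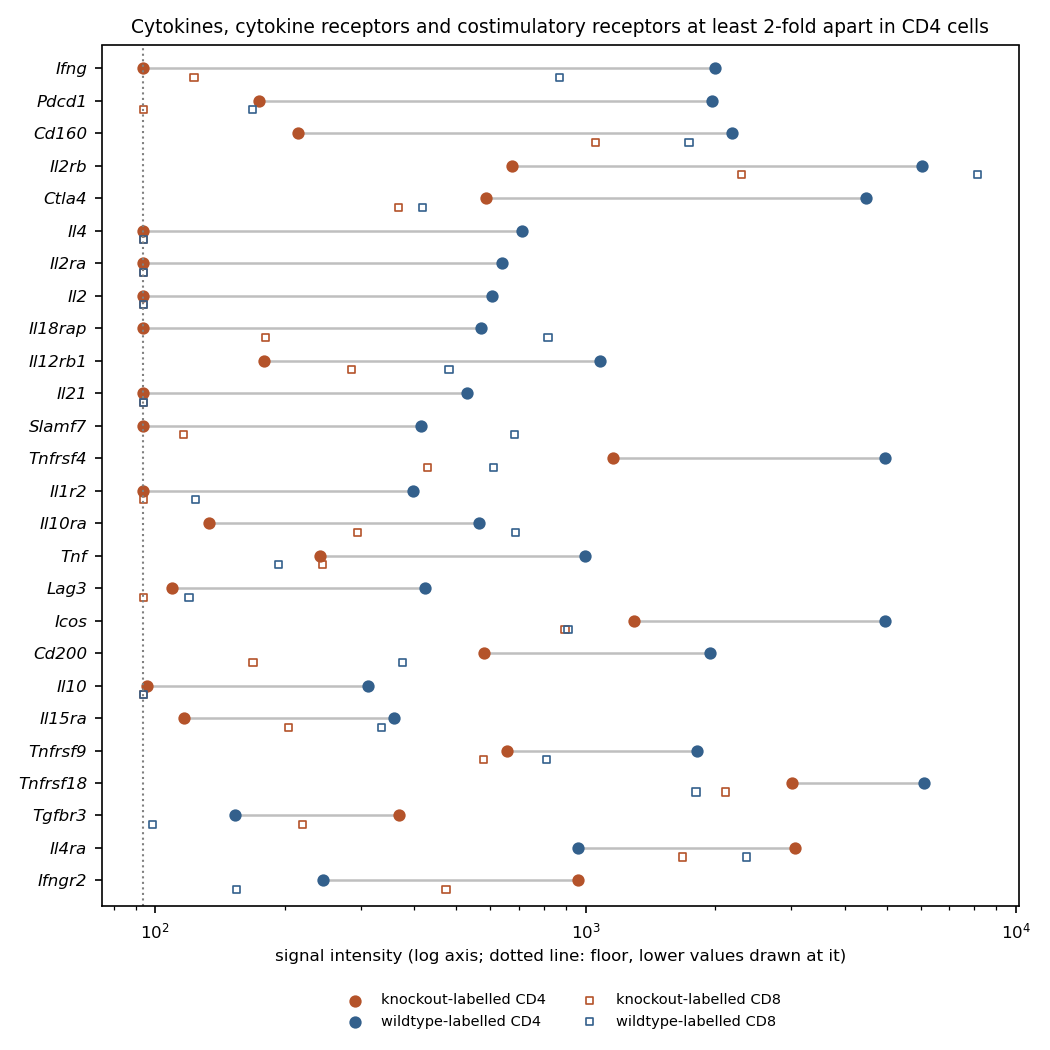
Signal (logarithmic axis) of cytokine, cytokine receptor and costimulatory receptor genes at least 2-fold apart on the CD4 arrays; filled circles are the CD4 arrays, open squares the CD8 arrays, orange labelled knockout and blue labelled wildtype, and the dotted line is the floor of 93.9, where lower values are drawn. Tgfbr3, Il4ra and Ifngr2, at the bottom, are the 3 genes higher on the CD4 array labelled knockout.

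Of 13 measured chemokine receptors, 9 were lower, and Ccr7 alone was higher, with a median of -1.50. Cxcr6, a receptor of tissue-resident and effector cells, read 12476 against a value below the floor (at least 133-fold lower), whereas the CD8 pair differed by -0.14. Cxcr3, which follows interferon-induced chemokines, read 13852 against 183 (75.5-fold lower). Ccr2, a receptor for inflamed tissue, read 1481 against a value below the floor (at least 15.8-fold lower). The skin receptors Ccr4 and Ccr8 were dim, at 235 against a value below the floor (at least 2.50-fold lower) and 250.1 against a value below the floor (at least 2.66-fold lower). Cxcr4, which retains cells in bone marrow, was on the other side at 2652 against 4393 (log2 difference 0.73). Chemokines themselves had 4 of 8 lower: Ccl5 read 12576 against 399.6 (31.5-fold lower), Xcl1 read 946 against a value below the floor (at least 10.1-fold lower), and Cxcl10, a ligand of Cxcr3, read 592 against a value below the floor (at least 6.31-fold lower). Prostaglandin receptors were lower too, Ptger2 at 2129.9 against 209.7 (10.2-fold lower) and Ptger4 at 8175 against 2279.5 (3.59-fold lower), while the sphingosine receptor S1pr4 read 5263 against 5835 (log2 difference 0.15).

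Of 27 genes of the TNF superfamily and its adaptors, 8 were lower and none was higher. Tnfsf14 (LIGHT) read 1929 against a value below the floor (at least 20.5-fold lower) and Tnfsf11 (RANKL) 1831 against 128 (14.3-fold lower). Fasl, the death ligand, read 1879 against 325 (5.78-fold lower), while its receptor Fas was on the other side, at 1052 against 1929.7 (log2 difference 0.88), with -2.80 or lower and 1.48 in the CD8 pair. Tnfrsf4 (OX40) read 4955 against 1157 (4.28-fold lower), Tnfrsf9 (4-1BB) 1816 against 656 (2.77-fold lower) and Tnfrsf1b, the second TNF receptor, 2398 against 649.6 (3.69-fold lower), while Cd27 was level at 4902 against 5161 (log2 difference 0.07). Of 20 costimulatory and checkpoint receptors, 10 were lower and none higher. Cd160, an inhibitory receptor, read 2193 against 215 (10.2-fold lower) and Lag3 422 against 109 (3.87-fold lower). Cd28, which naive cells need for activation, read 7981 against 7168 (log2 difference -0.15), and Vsir (VISTA), a checkpoint of resting T cells, read 2998 against 5065 (log2 difference 0.76).

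Of 31 measured genes of the T cell receptor complex and its signalling, 2 were apart, near the background share of 9.79%, with a median of 0.02. Cd3e read 7371 against 7468 (log2 difference 0.02), Lat, the membrane scaffold, 15958 against 17820.3 (log2 difference 0.16), and Ptprc, the phosphatase CD45, 29718 against 30718 (log2 difference 0.05). Those apart were Tec, a kinase of the same family as Txk, at 606 against 2634 (4.35-fold higher), and Sla, an adaptor that limits receptor levels, at 10178 against 4509 (2.26-fold lower). Txk read 2124 against 3811 (log2 difference 0.84). In the CD8 pair, Tec differed by 0.13 and Sla by -1.04. Of 19 genes of TGF-beta signalling, Smad7, the inhibitory SMAD, read 903 against 2064 (2.28-fold higher), and Smad3, an activating one, read 424 against 204 (2.08-fold lower). Tgfbr2 read 10192 against 14721 (log2 difference 0.53) and Smad4 5207 against 6042 (log2 difference 0.21).

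Of 16 measured regulators of G protein signalling and G protein subunits, 5 were lower and none was higher, beside 7.73% of all genes. Gna15, a G protein alpha subunit, read 799.6 against a value below the floor (at least 8.52-fold lower). Rgs16 and Rgs1, which shut off chemokine receptor signals, read 523 against a value below the floor (at least 5.57-fold lower) and 3516 against 952 (3.69-fold lower). Gng2 read 2288 against 561 (4.08-fold lower), and Gnai2, the main inhibitory alpha subunit of lymphocytes, was level at 9086 against 9310.4 (log2 difference 0.04). Dusp6, a phosphatase of ERK, read 2717 against 678 (4.01-fold lower), next to Dusp1 at 16457 against 9805 (log2 difference -0.75) and Dusp2 at 7379 against 8315 (log2 difference 0.17). Of 25 regulators of small GTPases, 4 were lower and 1 was higher, beside 7.73% and 2.06% of all genes. Among the lower ones, Rhoc read 496 against 202 (2.45-fold lower) and Rhoq 340.1 against 121 (2.80-fold lower). The higher one was Arhgef18, at 4877 against 9813 (2.01-fold higher), and Rac2, Cdc42 and Rhoa were within 2-fold.

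Cell division genes had the highest share of lower members among the lists with at least 3 measured members. Of 50 mitosis genes, 47 were at least 2-fold lower, none was higher, and the median was -2.51. In the CD8 pair the median was -1.19, and the CD4 difference was below the CD8 difference for 46 of the 47 genes measured in both. Of the 50 genes, 18 had 1 CD4 array at the floor, so their CD4 differences are bounds, and bounds entered this count as they stand. CD8 differences were floored in the same way. Any CD8 bound also entered as it stands and understates the CD8 fold, which can raise this count. Birc5 (survivin), of the chromosomal passenger complex, read 3230.0 against 123 (26.2-fold lower), and Ube2c, which loads ubiquitin for the anaphase-promoting complex, read 3339 against 185 (18.1-fold lower). Mki67, the antigen Ki-67 of dividing cells, read 3361 against 226 (14.9-fold lower). Cdk1, the mitotic kinase, read 1873 against 136 (13.7-fold lower), and its partner Ccnb2 2466 against 188 (13.1-fold lower). The 3 genes not counted were Cdc25c, dim on both arrays, Smc4, a condensin subunit, at 10186 against 11442 (log2 difference 0.17), and Pttg1 (securin), at 11024 against 11043. Foxm1, the factor that drives mitotic genes, read 296 against a value below the floor (at least 3.16-fold lower), Myb 3638 against 1130.1 (3.22-fold lower) and E2f8 496 against a value below the floor (at least 5.29-fold lower). Of the 13 measured E2F and Myb factors, which include these, 5 were lower and none was higher. On the other side, E2f4 read 294 against 439 (log2 difference 0.58).

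DNA replication genes were lower in 23 of 48, with a median of -0.92, and the counts differed by step. The genes of nucleotide supply were lower in 4 of 5, with a median of -1.99: Rrm2, a subunit of ribonucleotide reductase, read 4639 against 210.3 (22.1-fold lower), and Tk1, thymidine kinase, 1293 against a value below the floor (at least 13.8-fold lower). Those that copy chromatin were lower in 4 of 6, with a median of -2.16. Uhrf1, which hands methylation to new strands, read 1814 against 185 (9.81-fold lower), and Top2a, a topoisomerase, 3499.8 against 319.6, a log2 difference of -3.45. Helicase and loading genes were lower in 7 of 12 (median -1.52), with Cdc6 at 763 against a value below the floor (at least 8.12-fold lower), and polymerase and clamp genes in 8 of 19 (median -0.71), with Pole at 543 against a value below the floor (at least 5.78-fold lower) and Pcna at 21620.4 against 17360.5 (log2 difference -0.32). None of 6 genes of the origin recognition complex was counted as 2-fold apart; their log2 differences ran up to 0.39, and the lowest, of Orc1 at 178 against a value below the floor (log2 difference -0.92 at the floor), is a bound; Orc1 was named after its value was seen. Of cyclins and their inhibitors, Cks1b, a partner of cyclin-dependent kinases, read 7559 against 1862 (4.06-fold lower), Cdkn2c (p18) 2124 against 553 (3.84-fold lower), and Ccnd2, a cyclin D, 11948 against 10128 (log2 difference -0.24). Ezh2, a histone methyltransferase of dividing cells, read 3107 against 586 (5.30-fold lower), while its partner Eed read 3810.3 against 3069 (log2 difference -0.31).

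**Figure D4:**
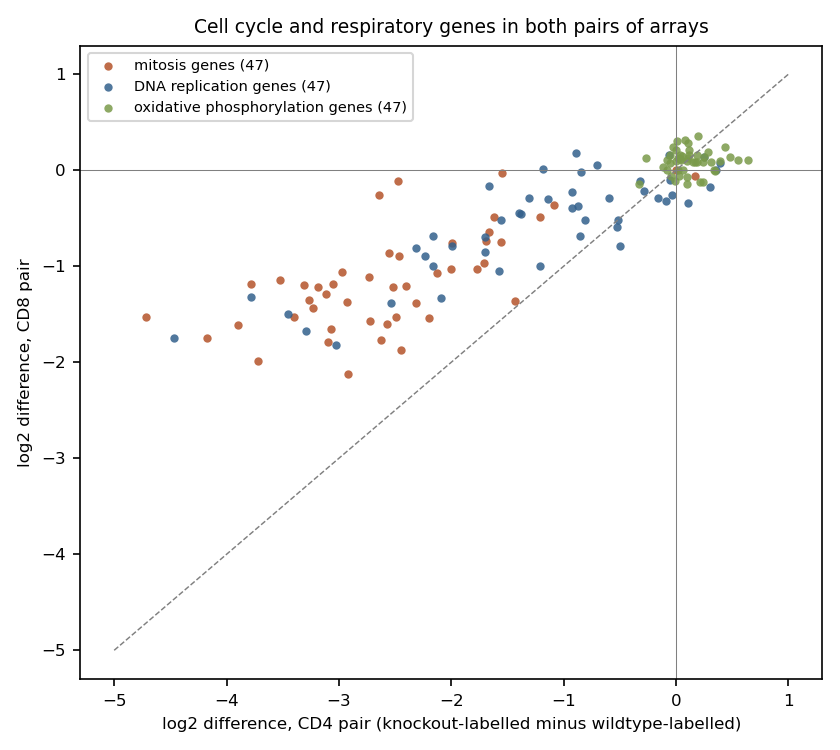
Log2 difference of each gene in the CD4 pair (horizontal) against the CD8 pair (vertical) for mitosis, DNA replication and oxidative phosphorylation genes, each difference being knockout label minus wildtype label. Most mitosis genes lie below 0 in both pairs, with the CD4 difference the lower one for 46 of 47, whereas oxidative phosphorylation genes gather around 0, with 23 of 47 lower in the CD4 pair. Bounds of either pair are drawn and counted as they stand.

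Because the mitosis and replication genes were lower together, their promoters were read for the elements that such genes are known to carry. RefSeq promoters of GRCm38.p6 were used, 250 bases before to 50 after each start, for 41 of 50 mitosis and 42 of 48 replication genes. The cell cycle homology region TTTGAA, searched on both strands, was in 30 of 43 mitosis promoters (69.8%), beside 17.9% of all 32851 promoters and 11.6% of those of genes above the floor. The CCAAT box, letters CCAAT on either strand, was in 72.1% against 37.4% of all. The E2F site, TTTCCCGC or TTTGGCGC on either strand, was in 13 of 53 replication promoters (24.5%) beside 1.56% of all and 3.02% of those of genes above the floor. The motifs were not required to be apart from each other. Sites of GFI1, T-box and Kruppel-like factors were searched as well, and the shares of the last 2 are not given here. The GFI1 site was in 0.16% of the promoters of lower genes and 1.03% of those of higher genes. These shares stand for 1 promoter, of St3gal6, and 2 promoters, both of the same gene, Satb1, beside 0.14% of those of genes above the floor. The 28 mitosis genes with TTTGAA had a median log2 difference of -2.57 and the 13 without it -2.47. The 120 bases before the start are shown for 2 replication genes, with the E2F letters in capitals, and for 4 mitosis genes, with TTTGAA or its complement TTCAAA in capitals, all written on the strand of the gene. A match is a description of the letters and not a bound site.
Hells (chr19:38930870-38930989, + strand): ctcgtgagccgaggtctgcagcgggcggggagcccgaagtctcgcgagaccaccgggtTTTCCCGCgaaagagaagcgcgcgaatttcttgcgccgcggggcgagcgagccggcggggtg
Mcm6 (chr1:128359706-128359825, - strand): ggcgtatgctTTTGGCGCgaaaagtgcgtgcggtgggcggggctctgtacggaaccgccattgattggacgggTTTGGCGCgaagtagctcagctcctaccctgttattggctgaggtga
Ube2c (chr2:164769809-164769928, + strand): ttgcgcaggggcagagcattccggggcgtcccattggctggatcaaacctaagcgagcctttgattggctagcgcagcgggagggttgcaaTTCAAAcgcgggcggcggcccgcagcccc
Mki67 (chr7:135716380-135716499, - strand): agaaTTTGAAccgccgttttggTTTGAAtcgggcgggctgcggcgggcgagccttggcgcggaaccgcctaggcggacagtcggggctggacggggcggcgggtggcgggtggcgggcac
Cdk1 (chr10:69352913-69353032, - strand): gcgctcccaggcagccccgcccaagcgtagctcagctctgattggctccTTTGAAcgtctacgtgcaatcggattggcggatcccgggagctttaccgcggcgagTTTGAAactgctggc
Cdc20 (chr4:118437344-118437463, - strand): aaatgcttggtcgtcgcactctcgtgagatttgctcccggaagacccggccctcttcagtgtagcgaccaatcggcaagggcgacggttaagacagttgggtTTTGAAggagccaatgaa
The signals that go with these promoters were 1064 against 226 (4.71-fold lower) for Hells, a chromatin remodeller, and 6797 against 2616 (2.60-fold lower) for Mcm6, a subunit of the replicative helicase. Cdc20, an activator of the anaphase-promoting complex, read 3551 against 389.6 (9.11-fold lower). Mcm6, Mki67 and Cdk1 each hold 2 matches in the stretch shown. Mcm6 and Cdc20 were chosen after their values were seen, for these sequences.

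Reported targets of Gfi1 were listed from general knowledge, with earlier results of these data known. They did not share a direction: of 22 measured, 8 were lower and 2 higher. Their median was -0.39, or 0.08 over those above the floor on both arrays. Il7r, Socs3 and Ets2 were above 0, Id2, Tbx21 and Il2ra below it. Cebpa, a myeloid factor, read 428 against a value below the floor (at least 4.56-fold lower).

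Adhesion genes differed in some members, with 6 of 24 measured lower and 1 higher, beside 7.73% and 2.06% of all genes. Itgb1, the integrin beta 1 chain, read 6176 against 444 (13.9-fold lower), its alpha partner Itga4 513 against 176 (2.92-fold lower), and Itgal, of the integrin LFA-1, 2442 against 879.5 (2.78-fold lower), while Itgb7 read 8593 against 11001 (log2 difference 0.36). Icam2, a ligand of LFA-1, read 2786 against 5863 (2.10-fold higher). S100a4 and S100a6, calcium-binding proteins of memory cells, read 11921 against 317 (37.6-fold lower) and 6654 against 244 (27.2-fold lower), and 7 of 20 genes of the S100, annexin and galectin families were lower and none higher. Anxa2, a membrane-binding annexin, read 5148 against 491 (10.5-fold lower), with Anxa5 at 3659 against 3497 (log2 difference -0.07). Of sialylation and selectin ligand enzymes, 6 of 15 were lower and none higher, among them Gcnt2 at 478 against a value below the floor (at least 5.09-fold lower), Chst2 at 458 against a value below the floor (at least 4.88-fold lower) and the sialyltransferase St3gal6 at 1091 against 324 (3.37-fold lower). The tetraspanins were all within 2-fold, with 11 of 12 below 0 as deposited and a median of -0.37, which was -0.06 after median centring.

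Actin and myosin genes held the largest difference on the higher side among genes above the floor on both arrays. Myo6, a myosin that moves toward the minus end of actin, read 233 against 3855 (16.6-fold higher). Pdlim4, a PDZ and LIM protein, read 400.1 against 5111 (12.8-fold higher), and its relative Pdlim1 4155 against 8675 (2.09-fold higher). Both Myo6 and Pdlim4 were higher in the CD8 pair, with log2 differences of 1.23 and 4.09 or higher. Myo1f ran the other way at 974 against a value below the floor (at least 10.4-fold lower), and Myo5a read 315 against 122 (2.57-fold lower), with a second probe set at 0.02. The core genes Actb, Tmsb4x and Coro1a were within 2-fold, at log2 differences of 0.03, 0.01 and 0.18. Tubulins had their own exception in Tubb2a, at 419 against 1219 (2.91-fold higher), while Tubb5 read 12236 against 11825 (log2 difference -0.05).

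Survival genes differed in both directions, with 3 of 14 measured BCL2 family genes lower and 2 higher, beside 7.73% and 2.06% of all genes. Bcl2, the inhibitor of cell death, read 325 against 660.4 (2.03-fold higher), and its antagonists Bbc3 (PUMA) and Bcl2l11 (BIM) were on the same side, at 524 against 1621 (3.10-fold higher) and 3408 against 6589 (log2 difference 0.95). Bcl2l1 (BCL-XL) read 955 against 453 (2.11-fold lower) and Pmaip1 (NOXA) 498 against 153 (3.26-fold lower). Mcl1, another inhibitor of cell death, was level at 13697 against 15046 (log2 difference 0.14). In the CD8 pair the log2 difference was -0.32 for Bcl2, -0.66 for Bbc3 and -0.19 for Bcl2l11, none of them 2-fold apart. Of 17 measured caspase and death genes, 4 were lower and none was higher on the CD4 array labelled knockout. The inflammatory caspases Casp1 and Casp4 read 1605 against 383 (4.19-fold lower) and 1129 against 311 (3.63-fold lower), and the death caspase Casp8 read 5311 against 5786 (log2 difference 0.12).

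Lists of basic cell functions were nearly level. No member was 2-fold apart among 47 genes of oxidative phosphorylation (log2 differences from -0.33 to 0.64), 24 of cholesterol synthesis, 35 of the proteasome and 39 chaperones. The 28 ribosomal protein genes were all above 0 as deposited, with a median of 0.29, which was 0.03 after quantile normalization, so their direction depends on the scaling. Of 20 glycolysis genes, only Hk2, a hexokinase of activated cells, was apart, at 207 against a value below the floor (at least 2.20-fold lower), and Slc2a3, a glucose transporter, read 4217 against 2162 (log2 difference -0.96). Psat1, of serine synthesis, read 2999.8 against 1101 (2.72-fold lower), while Slc7a5, a transporter of large amino acids, read 325 against 768 (2.36-fold higher). Atp1b1, a beta subunit of the sodium pump, read 1757 against 8369.5 (4.76-fold higher), but differed by -0.27 in the CD8 pair. Of 29 interferon response genes, 5 were lower and none was higher. Mx1, an antiviral GTPase, read 462 against a value below the floor (at least 4.92-fold lower) and Rsad2, another antiviral gene, 707 against 268 (2.64-fold lower), while Gbp2, a guanylate-binding protein, read 3509.5 against 6211 (log2 difference 0.82) and Ifi47 10607 against 14072 (log2 difference 0.41).

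Some of the largest differences belong to no list. Penk, the precursor of enkephalin, read 2283 against 133 (17.1-fold lower), Tiam1, an activator of Rac, 3368 against a value below the floor (at least 35.9-fold lower), and Pclaf, a partner of PCNA, 6234 against 387 (16.1-fold lower). On the higher side, App, the amyloid precursor protein, read 348 against 3612 (10.4-fold higher), Nacc2, a BTB protein, a value below the floor against 1909.6 (at least 20.3-fold higher), and Cd55, a regulator of complement, 265 against 1239 (4.68-fold higher). Adcy6, an adenylate cyclase, read 213 against 960.1 (4.51-fold higher). In the CD8 pair, App differed by 2.70, Nacc2 by 2.20 and Adcy6 by 0.70.

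Class II MHC genes were level in the CD4 pair and not in the CD8 pair. In CD4 cells all 5 measured genes were within 2-fold, with H2-Aa at 1254 against 1356 (log2 difference 0.11) and Cd74 at 1576 against 1354 (log2 difference -0.22), whereas the CD8 pair differed by -5.02 for H2-Aa and -4.82 for Cd74. In CD4 cells Cd83, a marker of dendritic and activated cells, read 2709 against 268 (10.1-fold lower). The difference between the pairs was not tested.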

How the data were processed

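RNA of sorted CD4 and CD8 T cells was labelled with biotin and measured on 4 Affymetrix MOE430A_2.0 arrays, 1 per group, with RNA of 2 mice pooled on each, per the labels. Each probe set has a linear signal intensity, which the authors made with GCOS 1.4 and MAS5, per the submitters' processing notes; how they were scaled is not given in the labels. From the values, the 2% trimmed means of the arrays lie between 980.3 and 983, so the deposited intensities appear scaled to a common level. The 64 control probe sets among 22690 were not used. The platform annotation gave 1 symbol for 20380 probe sets, several for 691 and none for 1555; 20351 of the first matched RefSeq (GRCm38.p6). A gene is its probe set of highest mean log2 value over the 4 arrays, which gave 12393 genes.

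Signals under the 40th percentile (93.9) were set to it before log2, and differences are the knockout label minus the wildtype label. With 1 array a side no test was run. Gene lists are described by the count of members at least 2-fold apart and by their median, with floored members at their bound. The members, the 73 lists and the rules were chosen with earlier results of these data known. Named genes are Gfi1, Cd44, Il7r and T cell markers, up to 8 members each way of each list at least 1.5-fold apart, up to 5 level members of highest signal, the 15 largest differences each way over all genes with 10 each way at the floor, the genes of opposite direction in the CD8 pair, and the fixed markers of cell types. Mcm6, Cdc20 and Orc1 lie outside that rule, as do Il5, Il13 and Il17a, named as below the floor. Alternatives were other scalings, floors and choices of probe set. The counting step was tested on simulated data. Promoters are those of RefSeq. Software was Python 3.11.15 with pandas 2.3.3, numpy 2.4.6 and, for plots, matplotlib 3.10.9.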

Additional observations from a re-analysis of the deposited data

Results flagged for a closer look

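A group of 9 genes was at least 2-fold apart in opposite directions in the CD4 and the CD8 pair, and for each the difference between the pairs was not tested, since each has 1 array a group. In CD4 cells 8 were lower on the array labelled knockout and higher in CD8 cells. Ccr9, the gut homing receptor, had log2 differences of -1.50 in the CD4 pair and 3.37 in the CD8 pair, and Itgae, the integrin chain that holds T cells in epithelium, -1.27 and 2.45. The inflammatory caspases went together: Casp1 differed by -2.07 and 1.12, and Casp4 by -1.86 and 1.31. Egln3, an oxygen-sensing hydroxylase, differed by -2.41 and 1.26, Gpr155 by -1.29 and 1.07, and Tmem144 by -1.64 and 1.33 or higher. Anp32a, an acidic nuclear phosphoprotein, differed by -2.13 and 1.63, but its CD4 difference was -0.03 without probe sets that match several transcripts. Plbd1 ran the other way, at 1.07 in CD4 and -5.25 or lower in CD8 cells. The CD4 differences of Itgae and Gpr155 also came under 2-fold with centred arrays, those of Gpr155 and Egln3 with the floor at the 60th percentile, that of Tmem144 without probe sets that match several transcripts, those of Tmem144 and Anp32a with the mean of all probe sets, and that of Plbd1 with a pseudocount of 16.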

How the results depend on the processing

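No paired analysis was possible because the labels give no replicate numbers and each group has 1 array. The lower and higher counts of all genes, 630 and 168, depend on the floor and the scaling, by construction for stricter filters. The higher count was 263 with quantile normalization, 421 with arrays centred on their medians, 400 when the floor was lowered to the 25th percentile and 78 when it was raised to the 60th. The lower count was 1128 under that lower floor, 250 under the higher one and 396 over genes above the floor on both arrays. With the floor at the 60th percentile, lower members numbered 24 for mitosis (47 as reported), 15 for DNA replication (23), 9 for regulatory T cells (16) and 4 for T-box and killer fate factors (7), and medians were -1.11 for mitosis (-2.51), -1.96 for memory and effector genes (-3.28) and -1.15 for regulatory T cells (-1.90). Over genes above the floor on both arrays they numbered 30 for mitosis, 19 for memory and effector genes (30), 4 for type 1 helper genes (7), 4 for chemokine receptors (9) and 4 for T-box and killer fate factors. Higher naive genes numbered 15 with centred arrays and 4 without probe sets that match several transcripts (7 as reported), and lower chemokine receptors 5 under the latter. Of 243 named genes at least 2-fold apart, all kept their direction under every alternative that gave a value, except Myo5a, at 0.023 without probe sets that match several transcripts; 213 stayed 2-fold apart with centred arrays, 226 with quantile normalization and 218 with the mean of all probe sets. The causes were not tested beyond the filters' own construction, and dim signals near the floor limit the folds of rare transcripts.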
